A study of Mus musculus with 5 samples.

Results

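Small nucleolar RNA (snoRNA) genes were taken from the deposited mouse expression table as every row whose gene name begins with Snora or Snord followed by a digit. This rule, which uses names and no measured values, gave 110 genes of 24346 rows, of which 36 belong to the box H/ACA class (Snora) and 74 to the box C/D class (Snord). The libraries were 5 bulk RNA-seq libraries of mammary luminal cells, the inner layer of the mammary epithelium, from mice of mixed strain. By the study's methods the cells were sorted as live CD24-high, CD29-low cells, whereas the extraction text in the labels speaks of frozen tumors. Replicates 1, 2 and 3 carry the label wild type and replicates 4 and 5 the label *Brca1* knockout. In the study's *Brca1* model the MMTV promoter drives Cre in mammary epithelium against floxed *Brca1*, so that deletion depends on where and when that promoter acts. Donors were described as females of 3 to 4 months, virgin or pregnant, and the stage behind each library was not given in the sources used here. The study's text calls the luminal cells of this data set BRCA1-deficient, which differs from 3 of the 5 labels, so libraries are named here by their labels. *Brca1* itself was listed at 1.30, 1.325 and 0.234 FPKM in replicates 1 to 3 and at 1.20 and 1.34 FPKM in replicates 4 and 5, levels that overlap between the labels and do not show whether an exon was removed. FPKM, the unit of the table, divides the fragments counted on a gene by its annotated length and by the depth of the library.

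The luminal markers fixed for the check of identity were above 0 in all 5 libraries, with *Krt8* the most abundant at 2483, 2240, 3653, 2421 and 2332 FPKM in replicates 1 to 5. Other luminal markers set replicate 3 apart. *Elf5*, a factor of alveolar luminal cells, was at 102 FPKM there and between 244 and 338 FPKM elsewhere, whereas the prolactin receptor gene *Prlr* was at 148 FPKM against 5.61 to 10.3 FPKM and the progesterone receptor gene *Pgr* at 27.1 FPKM against 0.111 to 0.715 FPKM. Markers of other cell types were lower but uneven. The 6 fibroblast markers summed to 109 and 86.0 FPKM in replicates 2 and 3 and to 3.0, 3.86 and 12.6 FPKM in replicates 1, 4 and 5. The 6 immune markers summed to 251 and 50.4 FPKM in replicates 2 and 3, with *Lyz2* the most abundant, and to 7.28, 4.77 and 7.75 FPKM in replicates 1, 4 and 5. The 7 basal markers summed to 73.8, 138.5, 13.5, 44.1 and 66.6 FPKM in replicates 1 to 5, mostly *Krt14* except in replicate 3, where *Krt17* was the highest. The 4 endothelial markers summed to 7.2 FPKM at most and the 4 adipocyte markers to 0.407 FPKM at most, with *Adipoq* at 0 in 4 of the 5 libraries. The part of these other cells in the snoRNA values below was not tested. Replicate 3 also stood apart from the rest over all genes, with Pearson's r of log2(FPKM + 1) across genes of 0.921 to 0.931 against the other libraries, while the highest r of each other library was between 0.962 and 0.974.

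SnoRNAs are short RNAs that work in the nucleolus and guide chemical modification of ribosomal RNA. C/D snoRNAs pair with a stretch of rRNA and place a ribose methyl group through the enzyme fibrillarin, whereas H/ACA snoRNAs fold into hairpins that place a pseudouridine through dyskerin. A few of them act in the cleavage of the rRNA precursor and not in its modification. In mammals most lie within introns of host genes, often genes of ribosomal proteins or translation factors, and are trimmed out of the spliced intron, so that they carry no poly(A) tail. Because a mature snoRNA is shorter than the fragments that a standard RNA-seq library is made of, such a library can catch it only poorly, and fragments of unspliced host RNA can fall on the same bases.

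A listed FPKM depends on the length that an annotation gives to a gene, so the models of 6 genes that the results turn on are shown first. Each sequence is the GENCODE M21 model on mm10, 5′ to 3′, and the capitals mark the bases that the RefSeq model of the same gene (GRCm38.p6) covers. *Snora19* lies at chr19:60774330-60774461 (minus strand) in an intron of *Eif3a*, *Snora61* at chr4:132310240-132310369 (plus strand) and *Snord99* at chr4:132310691-132310764 (plus strand), both overlapping exons of the long non-coding host *Snhg12*. *Snord69* lies at chr14:31014287-31014366 (minus strand) in an intron of *Gnl3*, *Snora70* at chrX:74272484-74272620 (plus strand) in an intron of *Rpl10*, and *Snora52* at chr7:141448803-141448939 (plus strand) in an intron of *Rplp2*.
Snora19: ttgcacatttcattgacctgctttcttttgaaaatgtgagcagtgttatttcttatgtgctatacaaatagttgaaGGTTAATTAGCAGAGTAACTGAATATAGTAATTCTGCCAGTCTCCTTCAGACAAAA
Snora61: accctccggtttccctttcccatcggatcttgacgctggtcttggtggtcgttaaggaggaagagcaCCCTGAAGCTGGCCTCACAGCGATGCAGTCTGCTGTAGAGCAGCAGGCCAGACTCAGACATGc
Snord99: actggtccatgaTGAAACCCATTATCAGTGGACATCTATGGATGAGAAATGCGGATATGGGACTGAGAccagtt
Snord69: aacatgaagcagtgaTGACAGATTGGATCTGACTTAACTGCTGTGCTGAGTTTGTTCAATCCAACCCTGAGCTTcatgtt
Snora70: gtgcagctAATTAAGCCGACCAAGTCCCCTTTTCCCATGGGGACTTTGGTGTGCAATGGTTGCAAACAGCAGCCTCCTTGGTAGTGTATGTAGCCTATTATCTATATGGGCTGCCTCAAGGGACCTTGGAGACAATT
Snora52: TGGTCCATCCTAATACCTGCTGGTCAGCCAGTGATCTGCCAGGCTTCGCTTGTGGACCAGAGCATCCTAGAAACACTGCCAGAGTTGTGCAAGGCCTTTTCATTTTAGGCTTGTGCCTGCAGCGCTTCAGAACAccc
The RefSeq model of *Snora19* covers 56 of 132 bases and that of *Snora61* 62 of 130 bases, in both cases the 3′ part of the RNA, while the models of *Snora70* and *Snora52* cover 129 and 134 of 137 bases.

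Over all members, the RefSeq model was shorter than the GENCODE model in 87 of the 109 genes with both, longer in 10 and of equal length in 12, and in 26 it was shorter by at least 20 bases. The median RefSeq length was 119.5 bases for H/ACA genes (range 56 to 198) and 68 bases for C/D genes (range 28 to 221), against GENCODE medians of 132 and 80 bases. The sequences carried the class marks. The letters ACA stood 3 bases before the GENCODE 3′ end in 30 of 36 H/ACA genes, against 3.27% of 2201 microRNA models, and that ACA lay at the end of the RefSeq span in 24. In the 73 C/D genes read, TGATGA (box C) within the first 20 bases was found in 46, CTGA (box D) within the last 20 bases in 71 and both in 44, against both in 0.0454% of the microRNA models. Within the RefSeq spans both were found in 24. Motifs were searched on the strand of the gene only, and *Snord99* above shows how a RefSeq model can begin inside box C.

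The listed FPKM of these genes fell on a ladder. Genes of equal RefSeq length in the same library had values that were equal or whole multiples of each other, such as *Snora34* at 26.952 and *Snora65* at 53.904 FPKM in replicate 2, both of 118 bases, or *Snord100* and *Snord2*, both of 68 bases and both at 363.02 FPKM in replicate 5. Among pairs of very short genes (microRNA genes included) of equal length, the ratio was whole to within 0.001 in 40 of 51 pairs in replicate 3, in 25 of 35 in replicate 5 and in 10 of 18 in replicate 2. The shallower replicates 1 and 4 had 2 and 5 such pairs, of which 0 and 1 gave a whole ratio. The lowest step of the ladder is the FPKM that 1 fragment is worth at a given length, and each listed value divided by it gives the number of fragments behind that value.

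One fragment on a gene of 68 bases, the median RefSeq length of C/D genes, was worth 11354, 799, 361, 11119 and 364 FPKM in replicates 1 to 5. On a gene of 130 bases it was worth 68.6, 14.0, 10.1, 85.3 and 8.30 FPKM in replicates 1 to 5. In the 2 shallowest libraries this value lay further from that of replicate 3, the deepest, than depth did. Low values of long genes gave depths of about 6280000, 12920000, 30300000, 6330000 and 21270000 fragments for replicates 1 to 5, so that replicate 3 was 4.82 times as deep as replicate 1, but a fragment on 68 bases was worth 31.4 times as much in replicate 1 as in replicate 3. At 130 bases this ratio was 6.77. Replicate 4 gave ratios of 30.8 and 8.41 at a depth gap of 4.79. In replicates 2 and 5 the ratios were smaller than the depth gaps, at 2.21 and 1.38 for a gap of 2.35 and at 1.01 and 0.818 for a gap of 1.42. The fitted numbers were within 0.05 of a whole number for 4 of 5, 20 of 24, 25 of 26, 7 of 7 and 25 of 26 member values of up to 4 fragments in replicates 1 to 5. These values also shaped the fit, whereas the pairs of equal length above do not use it.

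**Figure D1:**
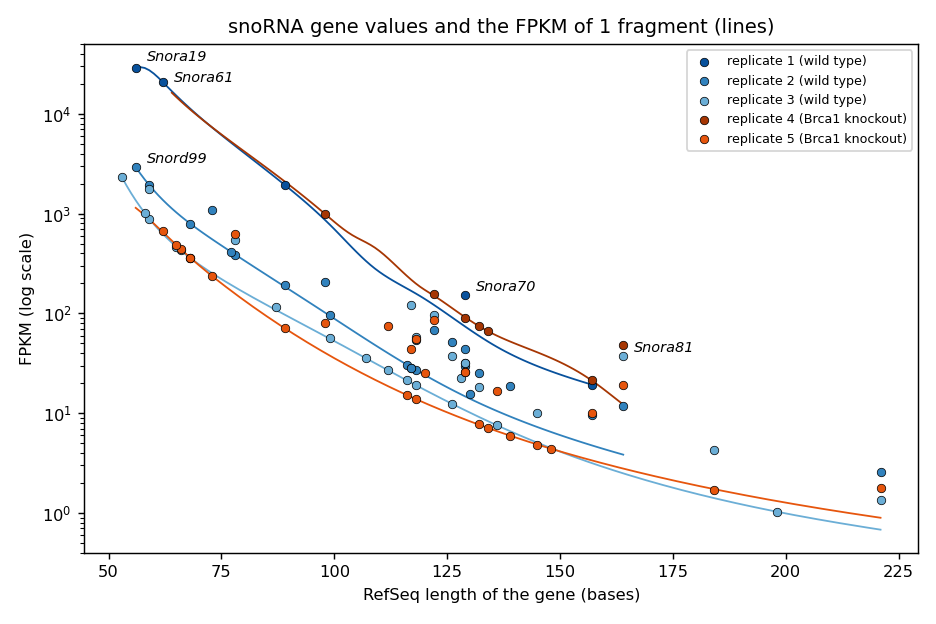
Listed FPKM (log scale) of each snoRNA gene with at least 1 recovered fragment against its RefSeq length in bases, 1 point per gene and library, with a line per library for the FPKM that 1 fragment is worth. Points lie on the lines or at multiples above them, and the lines of replicates 1 and 4, the 2 shallowest libraries, run far above the others at the shortest lengths.

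The 10 genes with the highest mean FPKM were *Snora19*, *Snora61*, *Snord69*, *Snord99*, *Snord37*, *Snord35a*, *Snord55*, *Snord104*, *Snora68* and *Snord2*. *Snora19* was listed at 28723 FPKM in replicate 1 and at 0 in replicates 2 to 5, and its value made it the gene with rank 2 in that library, behind the milk protein gene *Csn2* at 28982 FPKM. It rested on 1 fragment, for which the exact 95% Poisson interval of 0.0253 to 5.57 fragments spans 727 to 160030 FPKM. Before this point entered the curve of replicate 1 it read as 0.688 of a fragment. At the GENCODE length of 132 bases the same fragment would be worth 59.7 FPKM.

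*Snora61*, which guides a pseudouridine in the large-subunit rRNA, was listed at 20958 FPKM in replicate 1, the gene with rank 4 there, at 668 FPKM in replicate 5 and at 0 in replicates 2, 3 and 4. Both values rested on 1 fragment, which at the GENCODE length of 130 bases would be worth 68.6 FPKM in replicate 1 and 8.30 FPKM in replicate 5. *Snord69*, a guide of large-subunit rRNA methylation, was listed at 1937 FPKM in replicate 2 from 1 fragment, at 1766 FPKM in replicate 3 from 2 fragments, and at 0 in replicates 1, 4 and 5. More fragments thus came with a lower FPKM in the deeper library. *Snord99* and *Snord37*, of 56 and 53 bases in RefSeq, were each above 0 in 1 library, at 2960 FPKM in replicate 2 and at 2330 FPKM in replicate 3, in both cases from 1 fragment. *Snord35a* (89 bases), from an intron of *Rpl13a*, had 1 fragment in each of replicates 1, 2 and 5, and these equal counts were listed as 1934, 190 and 71.2 FPKM.

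*Snord55*, a C/D guide of large-subunit rRNA methylation, rested on the most fragments of any C/D gene. It was listed at 0, 389 and 547 FPKM in replicates 1 to 3 and at 0 and 632 FPKM in replicates 4 and 5, from 0, 1, 3, 0 and 4 fragments. A value of 0 at its 78 bases allows up to 3 fragments, or 14350 FPKM in replicate 1 and 14761 FPKM in replicate 4, which is far above the values listed in the deeper libraries. *Snord104* was at 1090 FPKM (2 fragments) in replicate 2 and at 235 FPKM (1 fragment) in replicate 5, and *Snord2* at 792 and 363 FPKM in the same libraries from 1 fragment each.

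Over all 5 libraries 102 member values were above 0. Of these, 52 rested on 1 fragment, 17 on 2 and 24 on 3 or more, and 9 were worth less than 0.5 of a fragment. The last group held *Snord116*, *Snord116l1* and *Snord116l2*, near-identical copies each listed at 35.6 FPKM in replicate 2, where fragments that fit several copies can be split among them, and *Snora24*, whose 3 values above 0 did not exceed 5.09e-05 FPKM. In all, 45 genes had a fragment in at least 1 library, 16 of them in 1 library, 16 in 2, 8 in 3, 4 in 4 and 1 in all 5. The other 65 genes had none, and 59 were listed at an exact 0 in every library. Exact zeros were not scattered over abundant long genes. The genes at 0 in a single library but at 10 FPKM or more in the other 4 were 3, 1, 0, 1 and 0 in replicates 1 to 5, with 0 single-transcript genes over 1000 bases among them, and the 3 of replicate 1 included *Snora28* and *Snora81*.

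**Figure D2:**
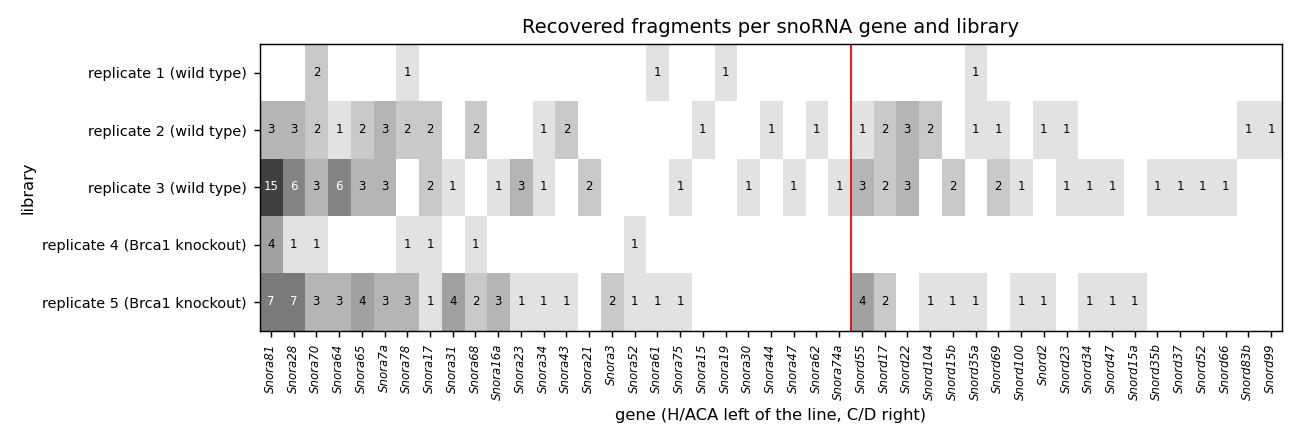
Recovered fragments (number and shade) for the 45 snoRNA genes with at least 1 fragment, with libraries as rows and genes as columns, H/ACA genes left of the red line and C/D genes right of it. Replicates 1 and 4 have fragments on 5 and 7 genes, and replicates 2, 3 and 5 on 24, 29 and 28.

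The place of replicate 1 differed between summed FPKM and fragments, while replicate 4 was lowest and replicate 3 highest of the other 4 libraries on both. Per 1000000 fragments and at GENCODE lengths replicate 2 was the highest. The summed FPKM of the 110 genes was 51788, 8627 and 9353 in replicates 1 to 3 and 1448.5 and 3781 in replicates 4 and 5, or 7.70%, 1.54%, 1.78%, 0.227% and 0.740% of all FPKM in each library. Replicate 1 had the highest sum and the fewest fragments. The recovered fragments were 6, 40 and 70 in replicates 1 to 3 and 10 and 62 in replicates 4 and 5. Per 1000000 fragments of estimated depth this was 0.955 (exact Poisson 95% interval 0.351 to 2.08), 3.10 (2.21 to 4.22), 2.31 (1.80 to 2.92), 1.58 (0.758 to 2.91) and 2.91 (2.23 to 3.74) in replicates 1 to 5, intervals that cover counting error only. Replicate 1 lay below replicates 2 and 5 beyond these intervals, and the other pairs of libraries overlapped. The 27 members of at most 62 bases in RefSeq held 10 of the 188 fragments of all libraries but 95.9%, 56.8%, 72.5%, 0% and 17.7% of the summed member FPKM in replicates 1 to 5. With the same fragments set on GENCODE lengths the sums would be 2079, 4021 and 3234 FPKM in replicates 1 to 3 and 505 and 2313 FPKM in replicates 4 and 5.

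**Figure D3:**
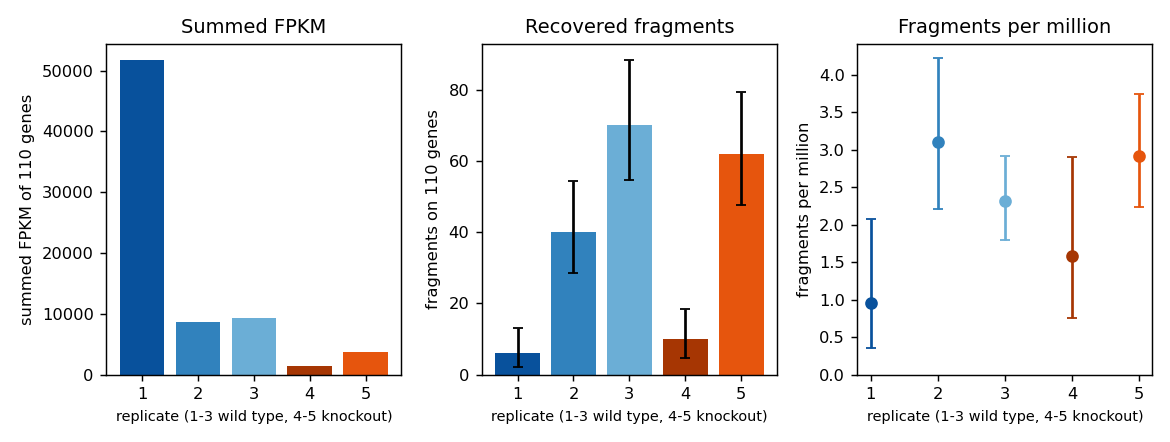
Summed FPKM (left), recovered fragments (middle) and fragments per 1000000 (right) of the 110 snoRNA genes in each library, replicates 1 to 3 labelled wild type and 4 and 5 *Brca1* knockout, with exact 95% Poisson intervals as error bars in the middle and right panels. Replicate 1 is highest in FPKM, at 51788, and lowest in fragments, at 6.

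The number of genes seen followed depth in part. Thinned by calculation to the depth of replicate 1, the fragments of replicates 2, 3, 4 and 5 would be expected to touch 15.2, 10.5, 6.95 and 13.3 genes, against 24, 29, 7 and 28 as recovered and 5 in replicate 1. H/ACA genes gave 139 fragments over 36 genes and C/D genes 49 fragments over 74 genes, or 3.86 and 0.662 fragments per gene. At least 1 fragment was found in 72.2% of H/ACA and 25.7% of C/D genes. The classes also differ in length, with RefSeq medians of 119.5 and 68 bases. Of all members of 100 to 150 bases 75% were above 0 somewhere, and of those under 100 bases 29.2%. Class and length cannot be told apart in these shares. Replicate 4 had 10 H/ACA and 0 C/D fragments, a level in which up to 3 C/D fragments could have been missed. A fragment on a C/D gene was worth more FPKM than one on an H/ACA gene in replicates 2, 3 and 5, at 566 against 22.9, 401 against 10.9 and 186 against 24.6 FPKM on average, and in replicate 1, where *Snora19* and *Snora61* weigh, it was worth less, at 1934 against 9971 FPKM.

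The same trend with length held for other very short genes. Of member values under 100 bases 90.3% were at 0, and of those at 100 to 150 bases 67.5%, against 96.4% and 89.4% for microRNA genes of the same length classes. The median FPKM of the member values above 0 was 467 under 100 bases, 26.4 at 100 to 150 bases and 11.8 at 150 to 200 bases, and for other genes with a single annotated length 235, 25.3 and 8.95 FPKM in these classes and 0.456 FPKM over 1000 bases. The spread between libraries, as the median SD of log2(FPKM + 1) over genes above 0 somewhere, was 4.8 for members under 100 bases and 2.21 at 100 to 150 bases, against 0.126 for other genes over 1000 bases. The 1 added before the log shrinks the spread of values at low FPKM, and the median FPKM also fell with length. Length and level therefore cannot be told apart in this spread.

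**Figure D4:**
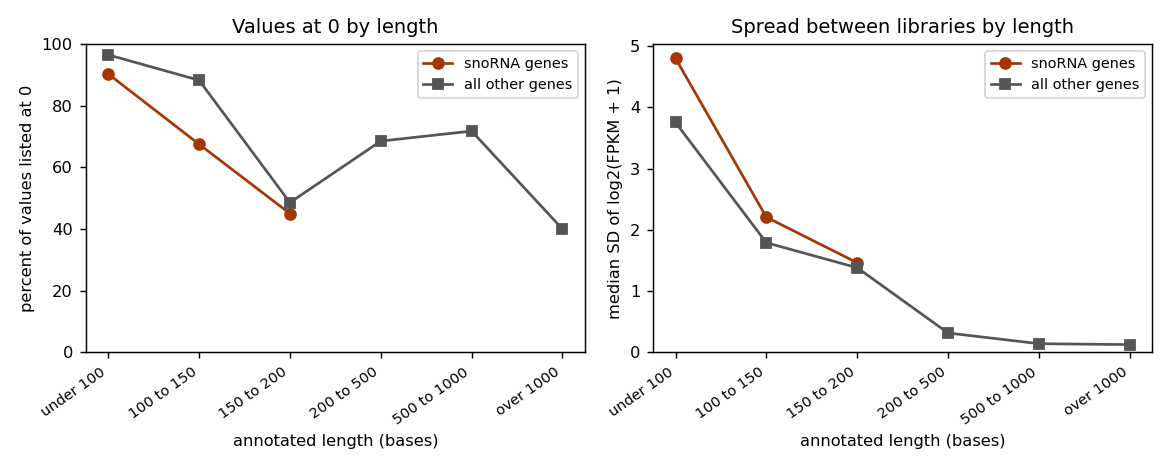
Percent of values listed at 0 (left) and median SD of log2(FPKM + 1) over the 5 libraries (right) by class of annotated length in bases, for snoRNA genes and other genes with a single annotated length (classes with at least 4 genes). The spread is 4.8 for snoRNA genes and 3.75 for other genes under 100 bases and falls to 0.126 for genes over 1000 bases. The 1 added before the log shrinks the spread of values at low FPKM, so length and level cannot be told apart in this fall.

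*Snora70*, which guides a pseudouridine in the small-subunit rRNA, was the 1 member above 0 in every library. It was listed at 154, 29.4 and 31.9 FPKM in replicates 1 to 3 and at 90.4 and 26.0 FPKM in replicates 4 and 5, from 2, 2, 3, 1 and 3 fragments. The 2 shallow libraries were high in FPKM and the labels overlapped. Its host *Rpl10*, a ribosomal protein gene, was at 1979, 1836, 1625, 1923 and 1538 FPKM in replicates 1 to 5. *Snora81*, a guide of large-subunit rRNA within *Eif4a2*, had the most fragments of any member, 29 in all. It was listed at 0, 11.8 and 37.5 FPKM in replicates 1 to 3 and at 48.7 and 19.3 FPKM in replicates 4 and 5, from 0, 3, 15, 4 and 7 fragments. In replicate 4 its length lay at the end of the fitted curve, and with the slope of the deepest library it read as 2.90 fragments. *Snora28*, a guide of small-subunit rRNA within *Eif5*, followed with 17 fragments, at 0, 67.8 and 97.4 FPKM in replicates 1 to 3 and at 156 and 85.0 FPKM in replicates 4 and 5, from 0, 3, 6, 1 and 7 fragments. Its higher values read as 6.33 and 7.33 fragments and so are less exact. For both genes the 0 of replicate 1 allows up to 45.7 and 366 FPKM, which lies above the values of both genes in replicates 2, 3 and 5.

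Between the labels, the question was whether snoRNA genes differed between luminal cells labelled wild type and *Brca1* knockout. The limma fit on log2(FPKM + 1) took in 11481 genes (mean of 1 FPKM or more) and called 0 genes at a Benjamini-Hochberg adjusted p below 0.05 (0% of genes), and 0 of the 47 members tested. At an unadjusted p below 0.05 it gave 372 genes (3.24%) and 1 member, and the exact permutation test per gene, which cannot go below p = 0.2 with 3 libraries against 2, gave 0. The 47 members passed the filter through a few high values. In 20 of them both libraries labelled knockout were at 0, in 2 all 3 libraries labelled wild type were, and the difference was above 0 in 16 and below 0 in 31. The median log2 difference (knockout minus wild type) was -1.13 over the tested members, against 0.11 over all genes tested, and without replicate 4 it was 0.55. The number of members whose labels did not overlap was 1 higher in knockout, against 17.5% of genes, and 0 lower in knockout, against 5.77% of genes. Without replicate 4 these counts were 9 and 1 of 48 members, against 29.2% and 12.7% of genes in that setting. Without replicate 5 they were 6 and 0 of 45 members, against 29.2% and 12.7% of genes, and without replicate 1 they were 2 and 5 of 47 members, against 33.0% and 12.6% of genes.

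The member with non-overlapping labels was *Snora52*, an H/ACA guide of large-subunit rRNA within *Rplp2*. It was listed at 0 in replicates 1 to 3 and at 66.5 and 7.14 FPKM in replicates 4 and 5, each from 1 fragment. Its log2 difference was 4.55 with a standard error of 0.87 (limma, Benjamini-Hochberg adjusted p = 0.924), and it was the member with an unadjusted p below 0.05. The zeros allow up to 156.96, 34.6 and 25 FPKM in replicates 1, 2 and 3, so that the value of replicate 5 lay below all 3 limits and that of replicate 4 above the last 2. The 1 fragment behind the value of replicate 4 has an exact 95% Poisson interval of 1.68 to 370.5 FPKM, which takes in all 3 limits. Among the other members with the largest differences in the direction of knockout, *Snora68* (large-subunit guide) was at 0, 206 and 0 FPKM in replicates 1 to 3 and at 991 and 79.9 FPKM in replicates 4 and 5, from 0, 2, 0, 1 and 2 fragments. Its log2 difference was 5.58 with a standard error of 2.67 (limma adjusted p = 0.924), and the labels overlapped. *Snora3*, within *Rpl27a*, was at 25.4 FPKM in replicate 5, from 2 fragments, and at 0 elsewhere. *Snora28* and *Snora81* above gave log2 differences of 2.62 (standard error 2.07) and 2.01 (standard error 1.55), with limma adjusted p of 0.924 for both. Without replicate 1, where both are listed at 0, these differences were 0.50 and 0.52.

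The 5 members with the largest differences in the direction of wild type were *Snord69*, *Snora19*, *Snord23*, *Snord99* and *Snord37*, all at 0 in both libraries labelled knockout. *Snord23*, within *Gltscr2*, was at 95.9 and 56 FPKM in replicates 2 and 3, from 1 fragment each, and at 0 in replicate 1. Each of the 5 rested on 1 to 3 fragments in the libraries labelled wild type. None passed the threshold, and their limma adjusted p was 0.924. *Snord69* was called in the one setting that left out replicate 1, with an adjusted p of 0.00232, where the remaining values were 1937 and 1766 against 0 and 0 FPKM. The 0 of replicate 5 allows up to 2627 FPKM, above both values, and for replicate 4 no limit could be set at 59 bases, so the call is not a difference that this depth can show.

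As single values per library, log2 summed member FPKM was 13.98 ± 1.46 (SD, n = 3) in libraries labelled wild type and 11.19 ± 0.979 (SD, n = 2) in those labelled knockout, a difference of -2.78 with the smallest p that this exact two-sided permutation test can give, 0.2. All 3 wild type sums lay above both knockout sums. At GENCODE lengths the sums overlapped, with a difference of -1.47 and an exact permutation p of 0.4. The fragments per 1000000 were 2.12 ± 1.08 (SD, n = 3) and 2.25 ± 0.944 (SD, n = 2), with an exact permutation p of 1, and the labels overlapped. On the log2 scale the difference in fragments per 1000000 was 0.18, the opposite sign. Pooled over libraries, 116 fragments in the libraries labelled wild type (2.34 per 1000000, exact Poisson 95% interval 1.94 to 2.81) stood against 72 in those labelled knockout (2.61 per 1000000, 2.04 to 3.29). These pooled intervals cover counting error only and leave out the spread between libraries, which ran from 0.955 to 3.10 per 1000000 within wild type. In these bulk libraries fewer cells that carry a snoRNA and less of it per cell cannot be told apart.

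A host in the annotation was found for 105 of the 110 members, of protein-coding type for 79 and non-coding for 26, and 102 members had a host listed in the table (74 distinct genes). Hosts were abundant, with a median of 97.3, 87.2, 57.8, 97.8 and 84.4 FPKM in replicates 1 to 5 against 0.440, 0.625, 0.564, 0.444 and 0.471 FPKM over all genes. Members with a fragment lay in hosts with a median of 101.5, 109, 129, 576 and 520 FPKM, and members without one in hosts with a median of 97.3, 60.7, 47.3, 91.0 and 60.6 FPKM in replicates 1 to 5. When the 102 members were ordered by the mean level of their host, fragments were found on 6 of the 34 in the lowest group (hosts up to 33.9 FPKM), 19 of the 34 in the middle group (35.1 to 676 FPKM) and 16 of the 34 in the highest group (850.5 to 2872 FPKM). As a description, Spearman's rho between fragments and host FPKM across these 102 members, which share hosts and library depth, was 0.028, 0.18, 0.23, 0.084 and 0.28 in replicates 1 to 5.

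Over all 102 members, most of them at 0, the median log2 difference (member minus host) was -6.42, -5.66, -4.78, -5.89 and -5.29 in replicates 1 to 5. Members with a fragment, a choice that leaves out the zeros, stood closer to their hosts. Set on GENCODE lengths, they stood at a median of 14.4%, 20.7%, 17.2% and 4.98% of their host in replicates 2 to 5, and as deposited at 32.9%, 36.3%, 68.1% and 10.7%. In replicate 1 these medians were 86.8% and 26520% over 5 members, of which *Snora78*, whose host *Snhg9* was listed at 0, was ranked highest. *Snora78* and *Snhg9* also lie within *Rps2*, which is on the other strand and was at 2355 FPKM in replicate 1. The library kit does not mark strand, and the part of *Rps2* RNA in the fragments set on *Snora78* was not tested. *Snora70* was at 4.41%, 1.10%, 1.33%, 2.96% and 1.24% of *Rpl10* in replicates 1 to 5. *Snora28* was higher relative to its host, at 56%, 82.0%, 111% and 70.3% of *Eif5* in replicates 2 to 5. *Snora81* had 29 fragments within *Eif4a2* (113.5 FPKM on average), whereas *Snora52* and *Snora3* had 2 each within *Rplp2* and *Rpl27a* (1758 and 676 FPKM on average). Of the 4 members within *Rpl13a* (1454 ± 231 FPKM, SD, n = 5), 2 had fragments, 5 in all, and of the 3 within *Rpl23a* (2084 ± 424 FPKM, SD, n = 5) 0 had. All 4 members of *Snhg12* (57.6 ± 15.9 FPKM, SD, n = 5) had fragments, 8 in all, and 3 of these 4 (*Snora44*, *Snora61* and *Snord99*) overlap an exon of that host. In total 8 members overlap a host exon, 5 of them with a fragment (62.5%), against 36 of the 94 members that lie within an intron (38.3%). For exonic members, fragments of the spliced host and of the snoRNA cannot be told apart in this table. For intronic members the part of unspliced host RNA was not tested, since the table does not give the position of a fragment.

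**Figure D5:**
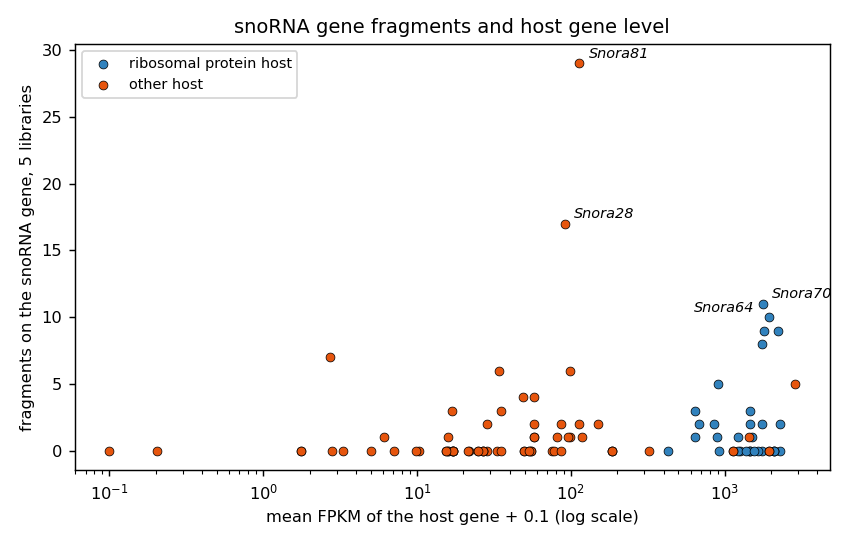
Fragments on each of the 102 snoRNA genes with a listed host, summed over 5 libraries, against the mean FPKM of the host plus 0.1 (log scale), with ribosomal protein hosts in blue and other hosts in orange. The gene with the most fragments, *Snora81* with 29, has a host at 113.5 FPKM, and genes with 0 fragments occur at host levels up to 2273 FPKM.

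The genes for the core proteins that snoRNAs work with were above 0 in every library. Of the C/D core, *Fbl* (the methyltransferase fibrillarin) was at 82.7 ± 11.6 FPKM, *Nop56* at 49.4 ± 9.14, *Nop58* at 53.2 ± 5.23 and *Nhp2l1* at 54.7 ± 7.66 FPKM (SD, n = 5). Of the H/ACA core, *Dkc1* (the pseudouridine synthase dyskerin) was at 9.63 ± 3.19, *Gar1* at 21 ± 7.40, *Nhp2* at 72.6 ± 19.8 and *Nop10* at 46.2 ± 7.68 FPKM (SD, n = 5). *Dkc1* was at 9.75, 10.7 and 5.41 FPKM in replicates 1 to 3 and at 8.21 and 14.1 FPKM in replicates 4 and 5, and was lowest in replicate 3. The median log2 difference of the H/ACA core was 0.28, and 0.05 without replicate 3. That of the C/D core was -0.057, with 1 gene higher and 3 lower in knockout, and -0.18 without replicate 3. Of the 14 assembly and transport genes tested, 0 passed the threshold, 12 had a difference above 0 (65.5% of all genes tested did) and 4 had labels that did not overlap, higher in knockout (17.5% of all genes did), with *Npm1* (nucleophosmin) the most abundant at 493 ± 141 FPKM (SD, n = 5). The median log2 difference of this list was 0.24, and 0.09 without replicate 3. Of the 23 genes of RNA polymerase I and pre-rRNA processing, 0 passed and all 23 had a difference above 0, with a median log2 difference of 0.15 beside 0.11 over all genes, and without replicate 3 that median was -0.03. Of the 14 genes tested from the list of host genes known for their snoRNAs, mostly long non-coding, 0 passed, with 7 above and 7 below 0. The median log2 difference of these host genes was -0.03, and -0.28 without replicate 3. *Gas5* was at 32.5, 32.5 and 26.5 FPKM in replicates 1 to 3 and at 26.4 and 23.7 FPKM in replicates 4 and 5, with replicates 3 and 4 nearly equal (log2 difference -0.27, standard error 0.18, limma adjusted p = 0.924).

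Members known from other tissues or for other roles were mostly at 0. The paternally expressed *Snhg14* locus, whose C/D clusters are known from brain, was present with 3 *Snord116* genes (35.6 FPKM each in replicate 2, less than 0.5 of a fragment each, and 0 elsewhere) and with *Snord64* at 0 in every library. Rows named *Snord113*, *Snord114*, *Snord115*, *Snord107*, *Snord3a*, *Snord13* and *Snora73* were not among the members analysed here. *Snord118* (U8), which acts in processing of the large-subunit rRNA, and the 3 *Snord14* genes (U14), which act in early cleavage of the precursor, were at 0 in every library. Among other short RNA genes, the shares above 0 somewhere differed by class, beside 51 of the 110 snoRNA genes. Of 9 small Cajal body RNA genes (*Scarna*) 2 were above 0 somewhere, of 1159 microRNA genes 154 (13.3%), and the RNA of RNase MRP, *Rmrp*, was at 0, 10.7 and 15.9 FPKM in replicates 1 to 3 and at 0 and 1.89 FPKM in replicates 4 and 5.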

How the data were processed

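The authors aligned reads of sorted luminal cells to mm10 (TopHat2 2.0.13, after Trimmomatic 0.35, in the submitters' processing notes, while the study's methods give another TopHat version) and used Cufflinks 2.2.1 to obtain the FPKM that they deposited. The annotation they used, the selection of RNA and the read totals are not given in the sources used here. The library kit is not one that marks strand. The table has 24346 rows, and 27 whose names had become dates were left out. The members and the lists were chosen with earlier results of these data known.

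Depth came from the steps between low values of FPKM times length in genes over 3000 bases with 1 transcript. In these, 53.1% to 57.8% of values lay within 0.15 of a whole multiple, so no count model was run. The depth of each library was the one that brought these values closest to whole multiples. The share is therefore raised by that choice and does not check the depth. For genes of at most 225 bases a curve of the FPKM of 1 fragment against RefSeq length was fitted per library, and values were rounded to whole fragments. Tested on simulated libraries, it returned the right number for 100% of 50, 52, 84, 40 and 90 genes at the depths of replicates 1 to 5. The simulated fragments summed to 51, 57, 104, 41 and 108, so most of these genes held 1 fragment. The real curves of replicates 1 and 4 had 10 and 21 points, and points added to them alone had read as 0.688 to 1.27 fragments. The simulation therefore does not show how exact those 2 curves are. Fragment intervals cover counting error only, and a listed 0 was taken to allow 3 fragments. All 110 members matched a RefSeq model (1 by a synonym) and 109 a GENCODE M21 model.

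Labels were compared with limma 3.58.1 (lmFit, eBayes with a trend) in R 4.3.3 on log2(FPKM + 1), which understates changes of low genes, with Benjamini-Hochberg adjustment and a threshold of 0.05. On simulated libraries the fit recovered 198 of 200 log2 changes of 1 where the SD was 0.2 and 8 of 200 where it was 0.5. Single values were compared by an exact two-sided permutation test. The labels do not say that replicates are separate animals, so p-values measure the spread between these libraries. Named members were the 10 highest means, the 5 largest differences each way and those above 0 in every library, with their hosts, of which some are not reported here. Lists were the C/D and H/ACA cores, assembly, RNA polymerase I and pre-rRNA processing, host genes known for their snoRNAs and markers of 6 cell types. Alternatives were another pseudocount (0.1), other filters and scalings, limma without a trend and each replicate left out. Fragments per 1000000 and GENCODE lengths were added after seeing the data. The other steps ran in Python 3.11.15 with scipy 1.17.1, pandas 2.3.3 and numpy 2.4.6.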

Additional observations from a re-analysis of the deposited data

How the results depend on the processing

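The snoRNA values of these libraries are limited by fragments, at most 15 per gene and library, with most values at 0 and 52 of the 102 above 0 resting on 1. No paired analysis was possible because the labels give the groups no replicate number in common. The count of called genes was 0 in the fit as reported and under the other pseudocount, filters and scalings and without a trend, and 0 to 14 when 1 replicate was left out. For members it was 0 to 1 with 1 replicate left out, the 1 being Snord69, and 0 otherwise. The median difference of members was -1.69 with a pseudocount of 0.1 and -2.29 to 0.55 with 1 replicate left out, and between -1.23 and -0.97 under the other settings, while median-of-ratios scaling moved the median of all genes from 0.11 to 0.0087. Members with labels that did not overlap were 2 to 9 higher and 0 to 5 lower in knockout with 1 replicate left out, where 23.6% to 33.0% of all genes were higher and 8.92% to 15.2% lower, and with no filter 1 was lower. The share of all genes higher and lower without overlap was 12.5% and 9.49% under median-of-ratios scaling, 12.8% and 8.09% under quantile normalization and 19.8% and 5.08% after rescaling to genes of at least 200 bases, against 17.5% and 5.77%.

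The difference in log2 summed member FPKM was -3.48 to -1.94 with 1 replicate left out, -1.47 with GENCODE lengths, 0.18 as fragments per 1000000, where it turned, and 0 as the median over members, most of whose values were 0. Members above 0 in every library were 1 as reported, 0 at 3 fragments and 1 to 4 with 1 replicate left out. The mean share of summed FPKM was 2.40%, and it was 1.07% without replicate 1, 1.325% without the highest member of each library and 2.55% to 2.94% with another replicate left out or after rescaling. Members stood -5.61 (log2) from their hosts in the median, -8.54 with a pseudocount of 0.1 and -0.51 among members with a fragment, a mean over libraries of 4.35 in replicate 1 and -3.22 to -0.68 in the others.

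Of the named members, Snora61 turned from -0.09 to 0.46 with a pseudocount of 0.1 and to 0.35 with quantile normalization. With 1 replicate left out, signs turned for Snora61 (-4.79 to 4.69), Snora70 (-0.99 to 0.77), Snord104 (-3.36 to 4.52), Snord2 (-3.21 to 5.30), Snord55 (-5.90 to 3.4) and Snord35a (-6.17 to 0.0082). The cause of these turns was not tested.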
